A study of Mus musculus with 10 samples.

Results

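The 37 mitochondrially encoded genes of the mouse were taken from the deposited count table as the rows whose gene name starts with mt-, which is 37 of 55487 genes. They are 13 coding genes, 2 ribosomal RNA (rRNA) genes and 22 transfer RNA (tRNA) genes. The RNA came from retinal microglia of 10 mice, sorted by flow cytometry as live cells positive for green fluorescent protein (GFP), with both retinas of an animal pooled. Every mouse was Cx3cr1GFP/+, so that 1 copy of the fractalkine receptor gene Cx3cr1 carried the GFP reporter, which also marks other myeloid cells. The groups were 8 weeks after streptozotocin (8wk STZ, n = 4), 4 weeks after it (4wk STZ, n = 3) and littermates (Control, n = 3). Streptozotocin is a poison of pancreatic beta cells, the source of insulin, and leaves the animals diabetic. The labels give no ages, so that age may differ between the groups, and 1 Control set serves both times.

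Mitochondria keep a small circular genome of their own. It codes for a few subunits of respiratory complexes I, III and IV and of the ATP synthase (complex V), and for the rRNAs and tRNAs that translate them. All other subunits, complex II included, are made from nuclear genes. Both strands of the circle are copied into long transcripts, and tRNAs that sit between the other genes mark where these are cut; most of the coding RNAs and the rRNAs are then given short poly(A) tails, which is what a library primed on poly(A) copies.

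The annotated genes lie so close together that a 150-base read can cross from one into the next, and the library kit keeps no strand. The sequences shown are those on which this bears most, from the GENCODE vM21 transcripts of GRCm38. The first 3 are tRNA genes on the minus strand, written as the tRNA with the anticodon in capitals. The fourth is the stretch shared by mt-Atp8 and mt-Atp6, with the mt-Atp6 start codon and the mt-Atp8 stop codon in capitals. The fifth is the stretch shared by the ends of mt-Nd5 and of mt-Nd6 on the opposite strand, written on the plus strand with the mt-Nd5 stop codon in capitals.
mt-Tp (tRNA for proline, chrM:15356-15422, minus strand): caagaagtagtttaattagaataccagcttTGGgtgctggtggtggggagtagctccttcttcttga
mt-Tq (tRNA for glutamine, chrM:3772-3842, minus strand): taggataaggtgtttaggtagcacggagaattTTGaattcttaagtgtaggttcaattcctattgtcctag
mt-Ts1 (a tRNA for serine, chrM:6870-6938, minus strand): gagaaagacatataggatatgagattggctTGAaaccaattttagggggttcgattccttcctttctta
mt-Atp8 and mt-Atp6 overlap (chrM:7927-7969, plus strand): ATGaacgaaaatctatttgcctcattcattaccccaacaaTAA
mt-Nd5 and mt-Nd6 overlap (chrM:13552-13565, plus strand): ttaatctcgagTAA
The first overlap is 43 bases long and the second 14 bases. The 3 tRNA genes are 67, 71 and 69 bases long, less than a single read.

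Library totals ran from 46143178 to 62903489 reads in 8wk STZ, from 33266838 to 49051036 in 4wk STZ and from 45656309 to 54312248 in Control. Control 3 and 4wk STZ 3 stood apart from the other libraries in an earlier analysis of these data, and results that change without them are given both ways. The labelled cell type was borne out by microglial markers, of which all 16 were detected, and their summed share of reads was 5.44 to 5.79% in 8wk STZ, 5.24 to 5.92% in 4wk STZ and 6.05 to 6.34% in Control. Rod photoreceptor transcripts were found in all 10 libraries.

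At 8wk STZ the mitochondrially encoded RNAs took a smaller share of the libraries, in all 3 classes. The 13 coding genes took 0.975, 0.814, 0.865 and 0.667% of counted reads in the 8wk STZ libraries, 1.29, 1.57 and 1.84% in the 4wk STZ libraries and 1.56, 1.41 and 1.53% in the Control libraries. All 4 of the 8wk STZ libraries lay below every other library, and the 4wk STZ libraries lay on both sides of the Control range. The 2 rRNAs took 0.348 ± 0.062% in 8wk STZ, 0.736 ± 0.192% in 4wk STZ and 0.516 ± 0.0791% in Control (SD, n = 4, 3 and 3). The 22 tRNAs took 0.0024 ± 0.000438% in 8wk STZ, 0.0048 ± 0.00104% in 4wk STZ and 0.00415 ± 0.000325% in Control. For both classes, too, no 8wk STZ library reached the lowest library of another group. These class sums are descriptions without a test. In bulk samples, fewer mitochondria or cells and less RNA per mitochondrion or cell cannot be told apart.

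**Figure D1:**
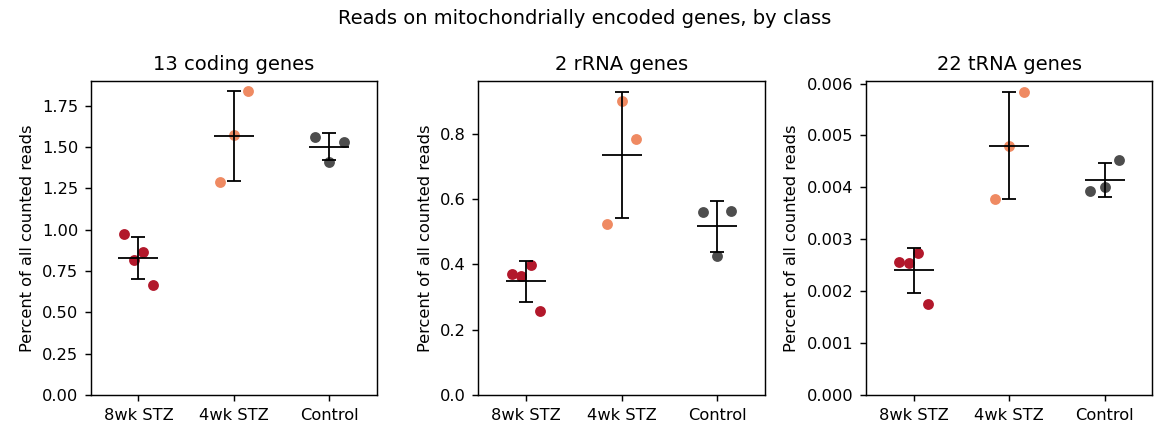
Percent of all counted reads on the 13 coding, 2 rRNA and 22 tRNA genes of the mitochondrial genome (vertical axes, each from 0) in 8wk STZ, 4wk STZ and Control. Each point is 1 library, and the bars are the mean and SD; the 4 points of 8wk STZ lie below all others in each panel.

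The comparison of 8wk STZ with Control asks how the sorted cells differ after the longer time of diabetes. Of the 37 genes, 21 had enough reads to be tested, which are all 13 coding genes, both rRNAs and 6 tRNAs. Counts were compared with edgeR's quasi-likelihood test over 18957 genes with Benjamini-Hochberg adjustment, and a gene is said to fall or rise where its adjusted p is below 0.05. Levels are given in counts per 1000000 reads (CPM), with library sizes scaled by edgeR's TMM factors. At 8wk STZ 9 coding genes and 1 tRNA fell, and none of the 21 rose. Over all genes tested, 1.4% fell and 0.971% rose, so that 41% of the 449 called genes rose. With library totals in place of TMM 66.2% of called genes rose, and with upper-quartile scaling 30.9% did, and in both the coding genes stayed lower. The coding genes had a median log2 fold change of -1.07, with a range of -1.24 to -0.57, against a median of -0.01 for all genes tested. In 17 of the 21 genes (13 coding, both rRNAs and 2 tRNAs) every 8wk STZ library was below every Control library, which held for 7.99% of all genes tested. The animals are separate, so that the p-values measure the spread between animals of a group.

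**Figure D2:**
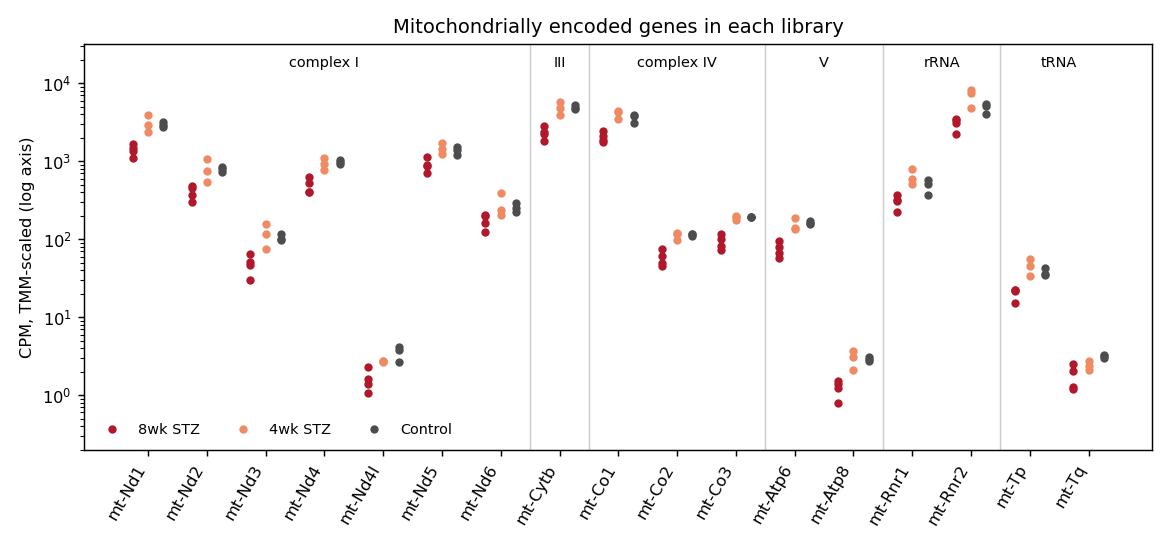
CPM (scaled by TMM, log axis) of 17 mitochondrially encoded genes in each library, ordered by respiratory complex and class, with 8wk STZ, 4wk STZ and Control side by side. In each coding gene and rRNA the 4 points of 8wk STZ lie below the 3 points of Control, while 4wk STZ and Control overlap.

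Complex III has a single mitochondrially encoded subunit, cytochrome b (mt-Cytb), which carries electrons from ubiquinol within the inner membrane. Its CPM values were 2854, 2214, 2385 and 1798 in 8wk STZ, 3958, 4820 and 5766 in 4wk STZ and 4900, 4712 and 5252 in Control. The highest 8wk STZ library was well under the lowest library of either other group. mt-Cytb fell at 8wk STZ against Control with a log2 fold change of -1.10 ± 0.15 (SE, edgeR adjusted p = 0.00617). Its gene runs from 14145 to 15288 on the plus strand of the mitochondrial genome. By the counts as given it had the highest level per length of the 15 coding and rRNA genes in Control, at 4331 ± 239 CPM per kilobase (SD, n = 3). Some of the other genes have near-identical nuclear copies, described below, and the rank is not read against those genes.

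Complex IV, cytochrome c oxidase, takes its 3 catalytic core subunits from the mitochondrial genome, and all 3 fell at 8wk STZ against Control. mt-Co3 had 116, 80.8, 102 and 72.2 CPM in 8wk STZ, 174, 201 and 193 CPM in 4wk STZ and 196, 194 and 195 CPM in Control. The Control libraries were nearly equal, and the 8wk STZ libraries were all far below them. It fell by 1.07 ± 0.15 on the log2 scale (edgeR adjusted p = 0.00549). mt-Co1, which holds the site where oxygen is reduced, had 2426, 1894, 2115 and 1756 CPM in 8wk STZ, 3458, 4314 and 4384 CPM in 4wk STZ and 3898, 3144 and 3762 CPM in Control, with no overlap between 8wk STZ and Control. It fell by 0.81 ± 0.13 on the log2 scale (edgeR adjusted p = 0.0105). mt-Co2, which takes electrons from cytochrome c, averaged 57.8 ± 12.8 CPM in 8wk STZ, against 114 ± 4.56 CPM in Control (SD, n = 4 and 3), and fell by 0.98 ± 0.16 on the log2 scale (edgeR adjusted p = 0.0113).

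Complex V takes 2 subunits of its membrane part from the mitochondrial genome, on overlapping frames shown above. mt-Atp6, part of the proton path, had 93.7, 66.3, 80.4 and 57.9 CPM in 8wk STZ, 135, 139 and 190 CPM in 4wk STZ and 155, 164 and 171 CPM in Control. The groups 8wk STZ and Control did not overlap, and mt-Atp6 fell by 1.13 ± 0.17 on the log2 scale (edgeR adjusted p = 0.00927). mt-Atp8, a short gene of 204 bases with few reads, averaged 1.23 ± 0.318 CPM in 8wk STZ, against 2.9 ± 0.165 CPM in Control. Its log2 fold change of -1.24 ± 0.40 was as large, but its adjusted p was 0.142 in edgeR, so that it did not pass.

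Complex I, the entry point of electrons from NADH, takes 7 subunits of its membrane arm from the mitochondrial genome, of which 4 fell at 8wk STZ. mt-Nd1 had 1650, 1351, 1462 and 1104 CPM in 8wk STZ, 2386, 2915 and 3914 CPM in 4wk STZ and 2783, 2961 and 3153 CPM in Control. It lay lower in every 8wk STZ library than in every Control library, with a log2 fold change of -1.09 ± 0.16 (edgeR adjusted p = 0.00974). mt-Nd4 averaged 490 ± 107 CPM in 8wk STZ, against 982 ± 45.6 CPM in Control, and fell by 1.00 ± 0.16 on the log2 scale (edgeR adjusted p = 0.0121). mt-Nd2 averaged 402 ± 83.3 CPM in 8wk STZ, against 795 ± 59.7 CPM in Control (a log2 fold change of -0.98 ± 0.21, edgeR adjusted p = 0.0399). mt-Nd3 averaged 48 ± 13.9 CPM in 8wk STZ, against 105 ± 9.51 CPM in Control (a log2 fold change of -1.13 ± 0.26, edgeR adjusted p = 0.0495). These last 2 calls are near the threshold. mt-Nd4l, with few reads, averaged 1.58 ± 0.502 CPM in 8wk STZ, against 3.51 ± 0.788 CPM in Control, and its log2 fold change of -1.15 ± 0.38 did not pass (edgeR adjusted p = 0.159).

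The remaining complex I genes, mt-Nd5 and mt-Nd6, had the smallest differences among the 13 coding genes. mt-Nd5 had 1125, 872, 900 and 714 CPM in 8wk STZ, 1251, 1419 and 1701 CPM in 4wk STZ and 1546, 1205 and 1394 CPM in Control. The highest 8wk STZ library came close to the lowest Control library without reaching it. Its log2 fold change was -0.61 ± 0.15, which did not pass (edgeR adjusted p = 0.0684). mt-Nd6, the one coding gene on the minus strand, had 208, 161, 199 and 123 CPM in 8wk STZ, 206, 237 and 393 CPM in 4wk STZ and 292, 223 and 252 CPM in Control, with a log2 fold change of -0.57 ± 0.23 (edgeR adjusted p = 0.259). The 8wk STZ and Control libraries of mt-Nd6 did not overlap either. The genes meet end to end on opposite strands, both strands are copied into long transcripts, and the library keeps no strand. Reads on mt-Nd6 may thus come from either strand along its whole length, and not only where it overlaps mt-Nd5. What share came from a plus-strand transcript that runs on from mt-Nd5 was not tested. The mt-Nd6 values are therefore not read as a separate measure of the minus strand.

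**Figure D3:**
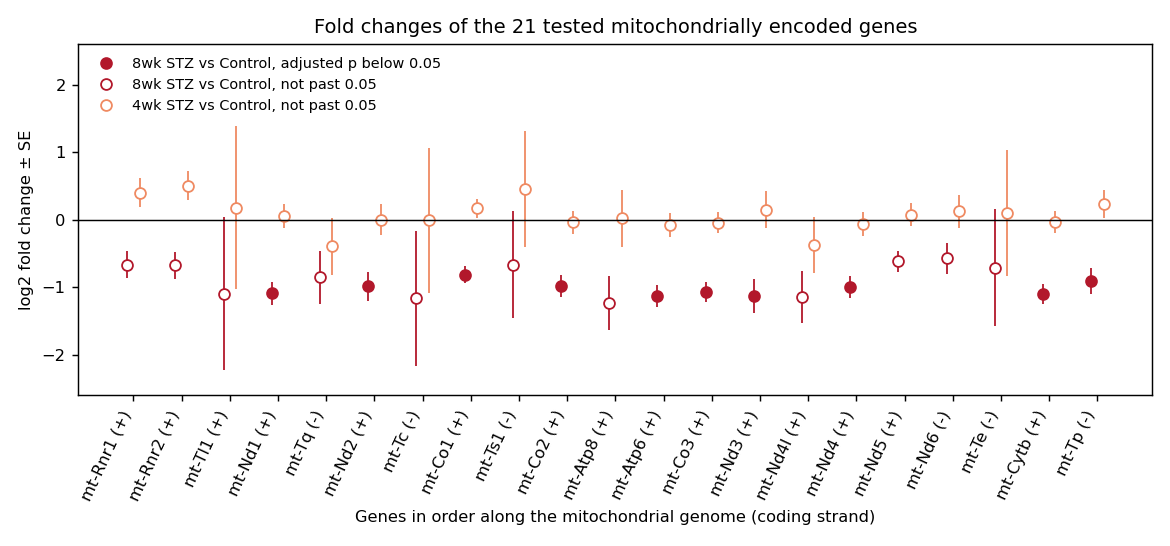
Log2 fold change against Control with its SE for the 21 tested genes in their order along the mitochondrial genome, for 8wk STZ (left point of each pair) and 4wk STZ (right point); the sign after a name is the coding strand, and filled points have an adjusted p below 0.05. The 8wk STZ points of the coding genes lie between -1.24 and -0.57, with mt-Nd5 and mt-Nd6 nearest to 0, and no 4wk STZ point is filled.

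The rRNAs of the mitochondrial ribosome were lower by less than most coding genes at 8wk STZ. The large-subunit rRNA mt-Rnr2 had 3387, 3057, 3471 and 2243 CPM in 8wk STZ, 4794, 8337 and 7503 CPM in 4wk STZ and 5107, 3996 and 5462 CPM in Control. It ranged widely within 4wk STZ and Control, and the 8wk STZ libraries lay under all of these. The small-subunit rRNA mt-Rnr1 had 321, 308, 367 and 227 CPM in 8wk STZ, 511, 807 and 596 CPM in 4wk STZ and 577, 369 and 506 CPM in Control, where the highest 8wk STZ library all but met the lowest Control library. Against Control their log2 fold changes of -0.68 ± 0.20 and -0.66 ± 0.20 did not pass (edgeR adjusted p = 0.113 for mt-Rnr2 and 0.125 for mt-Rnr1).

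Reads on tRNA genes were few and unevenly spread. Of 17381 reads on the 22 tRNA genes over all 10 libraries, mt-Tp held 15574, or 89.6%. The 8 tRNA genes on the minus strand held 98.9% of the reads, and the 14 on the plus strand held 193 reads in all. Since mature tRNAs carry no poly(A) tail and these genes are shorter than a read, a full-length read on them also covers neighbouring sequence, and what share came from the tRNA itself was not tested. mt-Tf (phenylalanine) and mt-Ts2 (serine) had no read in any library. In a library 3 reads, the limit a count of 0 allows, would be 0.0477 to 0.0902 CPM by library totals without TMM scaling. This covers counting error only. mt-Ti, mt-Tw and mt-Tk had 1 read each, mt-Ty had 2, and the other untested tRNAs, mt-Tg, mt-Tl2, mt-Td, mt-Th, mt-Tr, mt-Tt, mt-Ta, mt-Tv, mt-Tm and mt-Tn, had 5 to 47.

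mt-Tp lies at the end of the annotated map, next to the non-coding control region. It had 22.5, 21.4, 22.4 and 15.4 CPM in 8wk STZ, 33.9, 45.1 and 55.4 CPM in 4wk STZ and 35.1, 36.3 and 43.1 CPM in Control. Every 8wk STZ library lay below every other library, and mt-Tp fell by 0.90 ± 0.19 on the log2 scale against Control (edgeR adjusted p = 0.0382). mt-Tq, which lies between mt-Nd1 and mt-Nd2, averaged 1.75 ± 0.62 CPM in 8wk STZ, against 3.15 ± 0.118 CPM in Control (a log2 fold change of -0.85 ± 0.39, edgeR adjusted p = 0.326). The other 4 tested tRNAs, mt-Ts1, mt-Te, mt-Tl1 and mt-Tc, averaged 0.0937 to 0.298 CPM in 8wk STZ and 0.211 to 0.474 CPM in Control, and none passed the test.

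Of the 10 calls, 7 (mt-Co1, mt-Co2, mt-Co3, mt-Cytb, mt-Atp6, mt-Nd1 and mt-Nd4) passed in each of the 10 fits that left out 1 library. mt-Nd2, mt-Nd3 and mt-Tp passed only without 4wk STZ 1 or without 4wk STZ 3, and missed the threshold without any one of the other 8 libraries.

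Part of the mitochondrial genome has near-identical copies in the nuclear genome, which bears on how far the counts of single genes can be read. The annotation lists 7 unprocessed pseudogenes in 1 block on the minus strand of chromosome 1, between 24611535 and 24616197 (GRCm38). They are Gm29216 (mt-Co1), Gm28661 (mt-Co2), Gm10925 (mt-Atp6), Gm28437 (mt-Co3), Gm28438 (mt-Nd3), Gm10222 (mt-Nd4l) and Gm28439 (mt-Nd4). Against their mitochondrial counterparts Gm29216 had 6 substitutions in 492 aligned bases, Gm28438 had 1 in 345, and the other 5 had 0. Of all 150-base windows, 99.4% in mt-Co2, 99.4% in mt-Atp6, 99.8% in mt-Co3, 98% in mt-Nd4l, 97% in mt-Nd3, 59.2% in mt-Nd4 and 23.6% in mt-Co1 occur unchanged in an annotated nuclear transcript. No window of the other 6 coding genes or of the rRNAs did. An eighth annotated copy, Gm13341, also of mt-Co2, lies on chromosome 2 (22587291 to 22587962, minus strand), with 16 substitutions in 672 aligned bases, and 24 windows of mt-Co2 occur in it. A window search of the nuclear genome outside annotated transcripts was not done.

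The deposited counts divided some of these pairs almost evenly. The chromosome 1 copy held 52.9% of the summed reads of the pair for mt-Co2, 50.3% for mt-Atp6, 48.2% for mt-Co3 and 46.7% for mt-Nd4l, against 3.44% for mt-Co1, 4.18% for mt-Nd3 and 2.15% for mt-Nd4. Of the summed reads of mt-Co2 and both of its copies, Gm28661 held 44.4% and Gm13341 16%. How reads that match both places were counted is not given in the sources used here. The 5 genes with more than 90% of windows shared (mt-Nd3, mt-Co3, mt-Atp6, mt-Co2 and mt-Nd4l) held places 10 to 13 and 15 of the 15 coding and rRNA genes by level per length in Control, and their levels are therefore not read against those of the other genes. mt-Co3, for example, stood at 249 ± 0.882 CPM per kilobase in Control, while mt-Co1 of the same complex stood at 2331 ± 260 (SD, n = 3).

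Counts on the copies were also lower at 8wk STZ. Reads within a copy that has no substitution match its mitochondrial counterpart equally. These counts are therefore not read as a separate observation. Summed over the 7 copies on chromosome 1, the level was 394, 275, 322 and 243 CPM in 8wk STZ, 582, 652 and 692 CPM in 4wk STZ and 610, 627 and 643 CPM in Control. No 8wk STZ library reached the lowest library of another group. The count on Gm28437, the copy of mt-Co3, was lower by 1.08 ± 0.14 on the log2 scale at 8wk STZ against Control (edgeR adjusted p = 0.00524). The 7 copies ranged from -1.12 to -0.82, of which 4 passed, where 1.4% of all genes tested fell. Gm13341, on chromosome 2, had 29.3, 19.6, 22.7 and 16.7 CPM in 8wk STZ, 39.1, 51.8 and 44.6 CPM in 4wk STZ and 44.6, 51.6 and 46.0 CPM in Control. It fell by 1.10 ± 0.19 on the log2 scale against Control (edgeR adjusted p = 0.0143). With each chromosome 1 copy's reads added to its counterpart, an alternative chosen after the data were seen, 9 of the 37 genes fell against Control and mt-Nd3 no longer passed. The count was also 9 with Gm13341 added to mt-Co2 as well. Of the 8 coding and rRNA genes that share no window with an annotated nuclear transcript, 3 fell against Control, which were mt-Cytb, mt-Nd1 and mt-Nd2. The other 5, mt-Nd5, mt-Nd6, mt-Atp8, mt-Rnr1 and mt-Rnr2, did not pass, at log2 fold changes of -1.24 to -0.57. Of these, mt-Atp8 lies between mt-Co2 and mt-Atp6. The chromosome 1 sequence between the copies of those neighbours was not searched, so that a copy of mt-Atp8 there is not excluded.

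**Figure D4:**
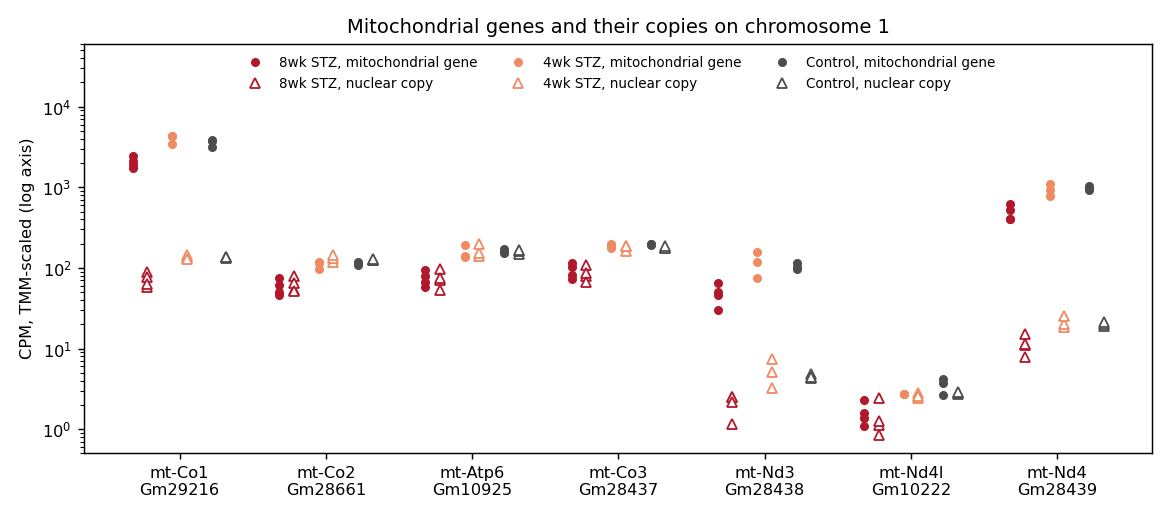
CPM (TMM-scaled, log axis) of 7 mitochondrial genes (filled circles) and of their annotated copies on chromosome 1 (open triangles) in each library of 8wk STZ, 4wk STZ and Control. Circles and triangles lie together for mt-Co2, mt-Atp6, mt-Co3 and mt-Nd4l, and the copies lie far lower for mt-Co1, mt-Nd3 and mt-Nd4.

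At 4wk STZ no mitochondrially encoded gene rose or fell, and neither did any other of the 18957 genes tested by edgeR's quasi-likelihood test (0% called). At an unadjusted p below 0.05, 907 genes (4.78%) were higher and 942 (4.97%) lower at 4wk STZ, and mt-Rnr2 was the one mitochondrially encoded gene among them. With other tests 314 genes (DESeq2), 244 (edgeR likelihood ratio test) and 0 (limma-voom) were called at 4wk STZ, and none of these was a mitochondrially encoded gene. The log2 fold changes of the 13 coding genes ran from -0.37 (mt-Nd4l) to 0.17 (mt-Co1). mt-Rnr2 averaged 6878 ± 1852 CPM in 4wk STZ, against 4855 ± 765 CPM in Control (a log2 fold change of 0.50 ± 0.21, unadjusted p = 0.0394, edgeR adjusted p = 0.487). mt-Rnr1 averaged 638 ± 152 CPM in 4wk STZ, against 484 ± 106 CPM in Control (a log2 fold change of 0.40 ± 0.22, edgeR adjusted p = 0.604). The 4wk STZ and Control libraries of both rRNAs overlapped. Of the 21 tested genes, mt-Tq alone had every 4wk STZ library below every Control library, which held for 6.25% of all genes tested. The coding share was spread more widely in 4wk STZ (SD 0.274%) than in 8wk STZ (0.128%) or Control (0.0807%), and 4wk STZ 3 was the highest and 4wk STZ 1 the lowest of its group.

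Between the times, 7 coding genes, both rRNAs and mt-Tp were lower at 8wk STZ than at 4wk STZ, and none of the 21 was higher. Over all genes tested, 0.522% were called lower and 0.396% higher, so that 43.1% of the called genes were higher (70.8% with library totals and 31.2% with upper-quartile scaling). The coding genes were mt-Co1, mt-Co2, mt-Co3, mt-Cytb, mt-Nd1, mt-Nd4 and mt-Atp6, which are the same 7 that passed against Control in every fit with a library left out. mt-Co1 had a log2 fold change of -0.98 ± 0.13 (edgeR adjusted p = 0.0164), mt-Cytb -1.07 ± 0.15 (0.018) and mt-Rnr2 -1.18 ± 0.20 (0.0312). The rRNAs were thus lower at 8wk STZ than at 4wk STZ although they did not pass against Control. mt-Nd3, at -1.28 ± 0.26, lay at the threshold without passing it. In 17 of the 21 genes every 8wk STZ library was below every 4wk STZ library, which held for 6.97% of all genes tested. These calls depended on single libraries. Without 4wk STZ 3 none of the 10 passed, and without 4wk STZ 2, 8wk STZ 2, 8wk STZ 3 or 8wk STZ 4 only 2 genes passed. Without both Control 3 and 4wk STZ 3, 7 genes fell at 8wk STZ against Control and 0 against 4wk STZ. Both 8wk STZ comparisons use the same 8wk STZ libraries.

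The proportions among the mitochondrially encoded RNAs were close but not equal between groups. There were 0.381, 0.448, 0.460 and 0.386 rRNA reads per coding read in 8wk STZ, 0.406, 0.572 and 0.426 in 4wk STZ and 0.358, 0.301 and 0.369 in Control, so that the Control libraries were the lowest throughout. The ratio of mt-Nd5 to mt-Cytb reads was 0.394, 0.394, 0.377 and 0.397 in 8wk STZ, 0.316, 0.294 and 0.295 in 4wk STZ and 0.316, 0.256 and 0.265 in Control. Every 8wk STZ library was above every other library in that ratio, which was picked after the fold changes were seen and has no test. The ratio of the 2 rRNAs to each other, mt-Rnr2 per mt-Rnr1 read, was 9.95 ± 0.456 in 8wk STZ, 10.8 ± 1.66 in 4wk STZ and 10.2 ± 1.14 in Control (SD, n = 4, 3 and 3), which overlapped.

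No nuclear gene for the other subunits of complexes I, III, IV and V was called at 8wk STZ. None of the 36 tested nuclear subunits of complex I, 9 of complex III, 11 of complex IV and 16 of complex V passed against Control in either direction, and their median log2 fold changes were 0.04, 0.03, -0.05 and -0.04. Since 1.4% of all genes tested fell and 0.971% rose, lists of this size would hold few calls at that rate. Having no call does not show that these subunits were unchanged. The log2 fold change was above 0 for 21 of the 36, 5 of the 9, 5 of the 11 and 6 of the 16 genes. Those with the highest mean level over all libraries are given as examples, and none of these 8 passed. Ndufa9 and Ndufs8, of complex I, had log2 fold changes of -0.29 ± 0.11 and 0.13 ± 0.14. In complex III Uqcrc1 stood at -0.19 ± 0.10 and Uqcrh at -0.35 ± 0.12, and in complex IV Cox4i1 stood at -0.15 ± 0.13 and Cox6a1 at -0.11 ± 0.14. Atp5a1 and Atp5b, the catalytic part of the ATP synthase, stood at -0.35 ± 0.11 and -0.28 ± 0.12. Of the 4 subunits of complex II, which has no mitochondrially encoded part, Sdha was called lower, with 304 ± 4.02 CPM in 8wk STZ, against 410 ± 25.7 CPM in Control (a log2 fold change of -0.43 ± 0.08, edgeR adjusted p = 0.0164).

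**Figure D5:**
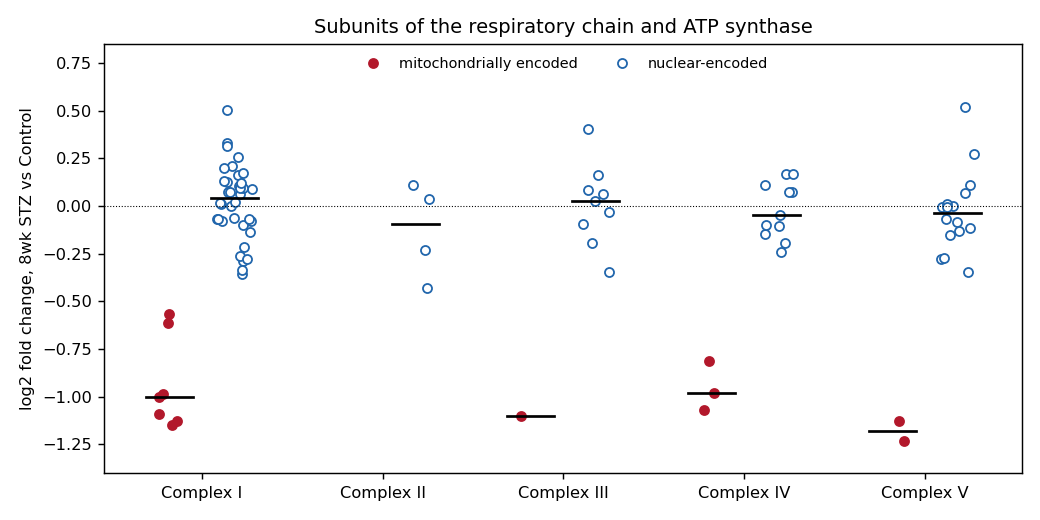
Log2 fold change of 8wk STZ against Control for mitochondrially encoded (filled) and nuclear-encoded (open) subunits of complexes I to V; each point is 1 gene and the bars are medians. The mitochondrially encoded subunits lie at -0.57 or lower, and the medians of the nuclear-encoded subunits lie near 0.

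Nuclear genes that make and mature the mitochondrial transcripts were not called either. With 1.4% of all genes tested lower and 0.971% higher, lists as short as the next 3 would hold few or no calls. Their lack of calls does not show that these genes were unchanged. None of 19 tested genes of mitochondrial transcription and replication was called at 8wk STZ against Control (median log2 fold change 0.10, range -0.96 to 1.12). Among them Nrf1, a nuclear regulator of respiratory genes, averaged 68.9 ± 6.53 CPM in 8wk STZ against 59.6 ± 6.89 CPM in Control, and Ssbp1, which binds single-stranded mitochondrial DNA, 42.3 ± 4.34 CPM in 8wk STZ against 38.3 ± 6.07 CPM in Control. None of 21 genes of mitochondrial RNA processing and turnover was called (median -0.05). Lrpprc, which stabilises mitochondrial mRNAs, averaged 42.7 ± 7.3 CPM in 8wk STZ against 49.7 ± 16.6 CPM in Control, and the RNase Rexo2 56.2 ± 8.33 CPM in 8wk STZ against 57.4 ± 11.5 CPM in Control. None of 12 nuclear genes often used as a measure of mitochondrial mass was called (median -0.09). Of these, the outer-membrane channel Vdac2 averaged 292 ± 25.9 CPM in 8wk STZ against 352 ± 37.5 CPM in Control, and citrate synthase, Cs, 137 ± 14.3 CPM in 8wk STZ against 160 ± 6.08 CPM in Control.

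Markers of rods and of some other retinal cells were also lower at 8wk STZ than in Control, and their part in the result was not tested. All 16 rod markers were called lower at 8wk STZ against Control, and their summed share of reads was 0.303 to 0.44% in 8wk STZ, 0.459 to 0.648% in 4wk STZ and 0.906 to 1.04% in Control. The rod share was thus lower at 4wk STZ than in Control in every library. Of 16 markers of inner retinal neurons 3 were called lower. Their share was 0.00889 to 0.0135% in 8wk STZ, 0.0212 to 0.0232% in 4wk STZ and 0.0226 to 0.0253% in Control. At 4wk STZ the inner neuron share overlapped Control, as the mitochondrially encoded coding share did. Against Control, the median log2 fold change of the rod markers was -0.69 at 4wk STZ and -1.46 at 8wk STZ. That of the inner neuron markers was -0.06 at 4wk STZ and -1.21 at 8wk STZ. Of 14 markers of Müller glia and astrocytes 3 were called lower, with a median log2 fold change of -0.71. That list holds Apoe, which microglia also express, and its summed share was 0.622 to 2.1% in 8wk STZ, 0.347 to 0.63% in 4wk STZ and 0.28 to 0.578% in Control. Of 8 endothelial and pericyte markers 1, Vtn, was called lower, with a log2 fold change of -1.57 ± 0.15. Their share was 0.00612 to 0.00727% in 8wk STZ, 0.00887 to 0.0125% in 4wk STZ and 0.0145 to 0.0177% in Control. Most of that share was Vtn, whose Control mean was 145 CPM, while Flt1, the next highest there, had 6.78. The share is therefore not read as a measure of endothelial cells or pericytes. For 2 of the 8, Cldn5 and Pecam1, the log2 fold change was above 0 (3.12 ± 1.97 and 0.13 ± 0.59). None of 8 border macrophage markers, 5 erythrocyte markers (2 tested) and 6 T and NK cell markers (3 tested) was called. Over all genes tested 1.4% fell and 0.971% rose, so that lists this short would hold few or no calls. Their lack of calls does not show that these markers were unchanged. The 2 tested erythrocyte markers, Hba-a1 and Hbb-bt, had log2 fold changes of -8.04 ± 2.13 and -7.44 ± 2.21 (edgeR adjusted p = 0.0813 and 0.116). Hba-a1 averaged 0.0349 ± 0.047 CPM in 8wk STZ, against 9.3 ± 9.15 CPM in Control. Of the 16 microglial markers 5 were called lower and 1, Siglech, higher.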

How the data were processed

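RNA-seq of 10 libraries of sorted retinal microglia was analysed from the deposited table of raw read counts per gene, whole numbers per the file headers. Per the submitters' processing notes the tools included STAR, featureCounts, Salmon, edgeR and limma and the build was GRCm38; the strand setting and how multiply mapped reads were treated are not given in these sources. Per the labels' protocols, libraries came from 1 to 2 ng of RNA with the SMARTer Ultra Low kit, amplified by PCR with no molecular identifiers named, and read as pairs of 150 bases. Of 55774 entries, 287 that repeated an identifier were dropped. Of the deposited numeric columns, 1 (transcripts per gene) was not used, nor was the authors' table of comparisons, in which no mitochondrially encoded gene is listed.

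Counts were scaled by TMM, filtered with filterByExpr by group and modelled in R 4.3.3 with edgeR 4.0.16. A single fit of the 10 libraries gave each group its mean and left 7 degrees of freedom. The quasi-likelihood test, in its robust form, was followed by Benjamini-Hochberg adjustment over 18957 genes at 0.05. Alternatives changed scaling, filter, test (DESeq2 1.42.0, limma 3.58.1, likelihood ratio test), samples and replicate block. The procedure was tried on simulated data as a check of its working only. That check does not bear on reads divided between copies or on calls that depend on single libraries. No library looked like a second deposit of another of its group (lowest pairwise chi-square over degrees of freedom 48.2). Copies were aligned with Biopython 1.88. The members, gene lists and marker lists were chosen with earlier results of these data known. All coding and rRNA genes, the tested tRNAs and the chromosome 1 copies are named; of other lists, the called genes or the 2 with the highest mean CPM over all libraries are, except for the marker lists. Gm13341, on chromosome 2, was added after its values were seen.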

Additional observations from a re-analysis of the deposited data

Results flagged for a closer look

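For 10 mitochondrially encoded genes the difference from Control was not the same at both times, by the test of 8wk STZ against 4wk STZ. The log2 fold changes were -1.06 for mt-Rnr1, -1.18 for mt-Rnr2, -1.14 for mt-Nd1, -0.98 for mt-Co1, -0.94 for mt-Co2, -1.05 for mt-Atp6, -1.03 for mt-Co3, -0.94 for mt-Nd4, -1.07 for mt-Cytb and -1.13 for mt-Tp. None of them passed without 4wk STZ 3.

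In 3 measures 1 of the 4 libraries of 8wk STZ stood away from the others by Dixon's criterion, of 37 measures checked; chance alone flags about 1 in 20. In 8wk STZ 4 mt-Tp had 15.4 CPM, against 21.4 to 22.5 CPM in the other 8wk STZ libraries. The 8 minus-strand tRNA genes, most of whose reads are on mt-Tp, took 0.00175% of reads in the same library, against 0.00253 to 0.00268% in the others. In 8wk STZ 3, reads of mt-Nd5 per mt-Cytb read came to 0.377, and in the remaining 8wk STZ libraries to 0.394 to 0.397.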

How the results depend on the processing

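Direction was stable for every mitochondrially encoded gene called in either 8wk STZ comparison, under every alternative run, while the number of calls was not. Against Control, 8 to 15 of the 37 genes were called lower with other scalings, library sizes, filters or tests, 9 with the reads of the copies on chromosome 1, or on chromosomes 1 and 2, added and 7 without both Control 3 and 4wk STZ 3. With 1 library left out, the count was 7 to 10 and the median of the coding genes -1.18 to -0.96. Against 4wk STZ, 6 were called in a fit of the 2 groups alone, 0 without both Control 3 and 4wk STZ 3, and 0 to 12 with 1 library left out. Over all genes, the reported counts were 449 (8wk STZ against Control), 174 (8wk STZ against 4wk STZ) and 0 (4wk STZ against Control). DESeq2 gave 1451, 1004 and 314, the likelihood ratio test 1166, 759 and 244, and no filter 506, 277 and 12. Without both Control 3 and 4wk STZ 3 the counts were 275, 6 and 0, and the fit of the 2 groups alone gave 100 for 8wk STZ against 4wk STZ. With 1 library left out they ran from 206 to 462, from 13 to 118 and from 0 to 1. The cause was not tested. With library totals in place of TMM, the median of all genes at 8wk STZ against Control was 0.10 in place of -0.01, and that of the coding genes was -0.97. The labels do not say that the replicate numbers pair the samples. Deviations of same-numbered libraries correlated at -0.03 to 0.03, and those of other pairs across groups at -0.04 to 0.04. With so few libraries per group this cannot exclude a shared batch. With the replicate number as a block, which takes 8wk STZ 4 out of the contrasts because it alone has its number, 44, 0 and 0 genes were called and 0 of the mitochondrially encoded ones in any comparison. Genes with few reads (mt-Atp8, mt-Nd4l and the tRNAs other than mt-Tp) had SEs of 0.38 to 1.13 at 8wk STZ against Control, and log2 fold changes down to -1.24 did not pass there.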
